A study of Bos taurus with 6 samples.

Results

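The beta subunits of the sodium pump and a set of water channels, the genes ATP1B1, ATP1B2, ATP1B3, AQP1, AQP3, AQP8 and AQP11, were examined in bovine blastocysts and bovine granulosa cells. The members are all array probes that the platform annotation assigns to these 7 gene symbols, which gave 10 probes of the 43794 on the array. Of these 43794 probes, 21790 carry a symbol here, for 15214 genes. ATP1B3 has 3 probes, AQP3 has 2 and each of the other genes has 1.

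Every array carried RNA of both cell types, one labelled with Cy3 and the other with Cy5. The blastocysts were Holstein embryos made in vitro from abattoir oocytes of 3 to 6 mm follicles, fertilised with mixed semen of 3 bulls, and harvested at day 7. The granulosa cells, the somatic cells lining the ovarian follicle, came from lactating Holstein cows at day 8 to 11 of the cycle. Follicles over 5 mm were aspirated, and 36 h later the cows began a course of 6 injections of 40 mg of follicle-stimulating hormone, 240 mg in total. The cells were aspirated 44 h after the last injection, selected by eye under a binocular microscope and washed. Blastocyst RNA carried Cy3 on 3 arrays and Cy5 on 3, and same-numbered arrays of opposite dye were averaged into 3 replicates. Each RNA was a pool. The labels do not say how many cows or embryos a pool holds. The p-values thus reflect only how these pools vary, part of which may be technical. Whole blastocysts hold trophectoderm and inner cell mass together.

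The sodium pump exchanges sodium for potassium across the cell membrane. Its catalytic alpha subunit moves the ions, and its glycosylated beta subunit is needed for the pump to fold and reach the membrane. Aquaporins are membrane channels that let water pass, and some of them also glycerol. In the mouse embryo the pump of the trophectoderm drives ions towards the inside, water follows through aquaporins, and tight junctions between the trophectoderm cells keep the fluid of the blastocoel in.

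Raw median intensities per array lay between 189 and 386 in Cy3 and between 177 and 210 in Cy5. Probes brighter than the 95th percentile among 153 negative control spots made up 64.0% to 77.0% of all probes in the blastocyst channel and 58.2% to 78.3% in the granulosa channel. The labels were checked against marker genes. Of 8 blastocyst markers 7 were higher in blastocysts, and of 7 granulosa markers 4 (INHA, INHBA, FST and GJA1) were higher in granulosa cells, by the limma test used throughout. That test called a difference at a Benjamini-Hochberg adjusted p under 0.05, over all 35034 probes tested, with a log2 ratio of at least 1 in size. Precision is limited throughout by having only 3 replicates, each the mean of arrays of opposite dye.

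Of the 10 member probes, 7 lay above background often enough to be tested, and they stand for 6 of the 7 genes. Among them 2 were higher in blastocysts, ATP1B3 and AQP11, and 0 were higher in granulosa cells. Over all probes tested 4.95% were called higher in blastocysts, 5.19% higher in granulosa cells and 10.1% in either direction. At an unadjusted limma p under 0.05, 3 of the 6 member genes stood higher in blastocysts against 0 in granulosa cells. Over all genes tested those shares were 20.4% and 21.1%, which also apply to the gene lists given further on. The median log2 ratio of blastocyst over granulosa was -0.03 over the 7 member probes and -0.01 over all probes tested. The ratio also differed between the 3 replicates, at an adjusted p under 0.05, for 3 of the 7 member probes against 37.6% of all probes, and between the dye orientations for 3 of the 7 against 49.8%. Those shares are near the background.

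**Figure D1:**
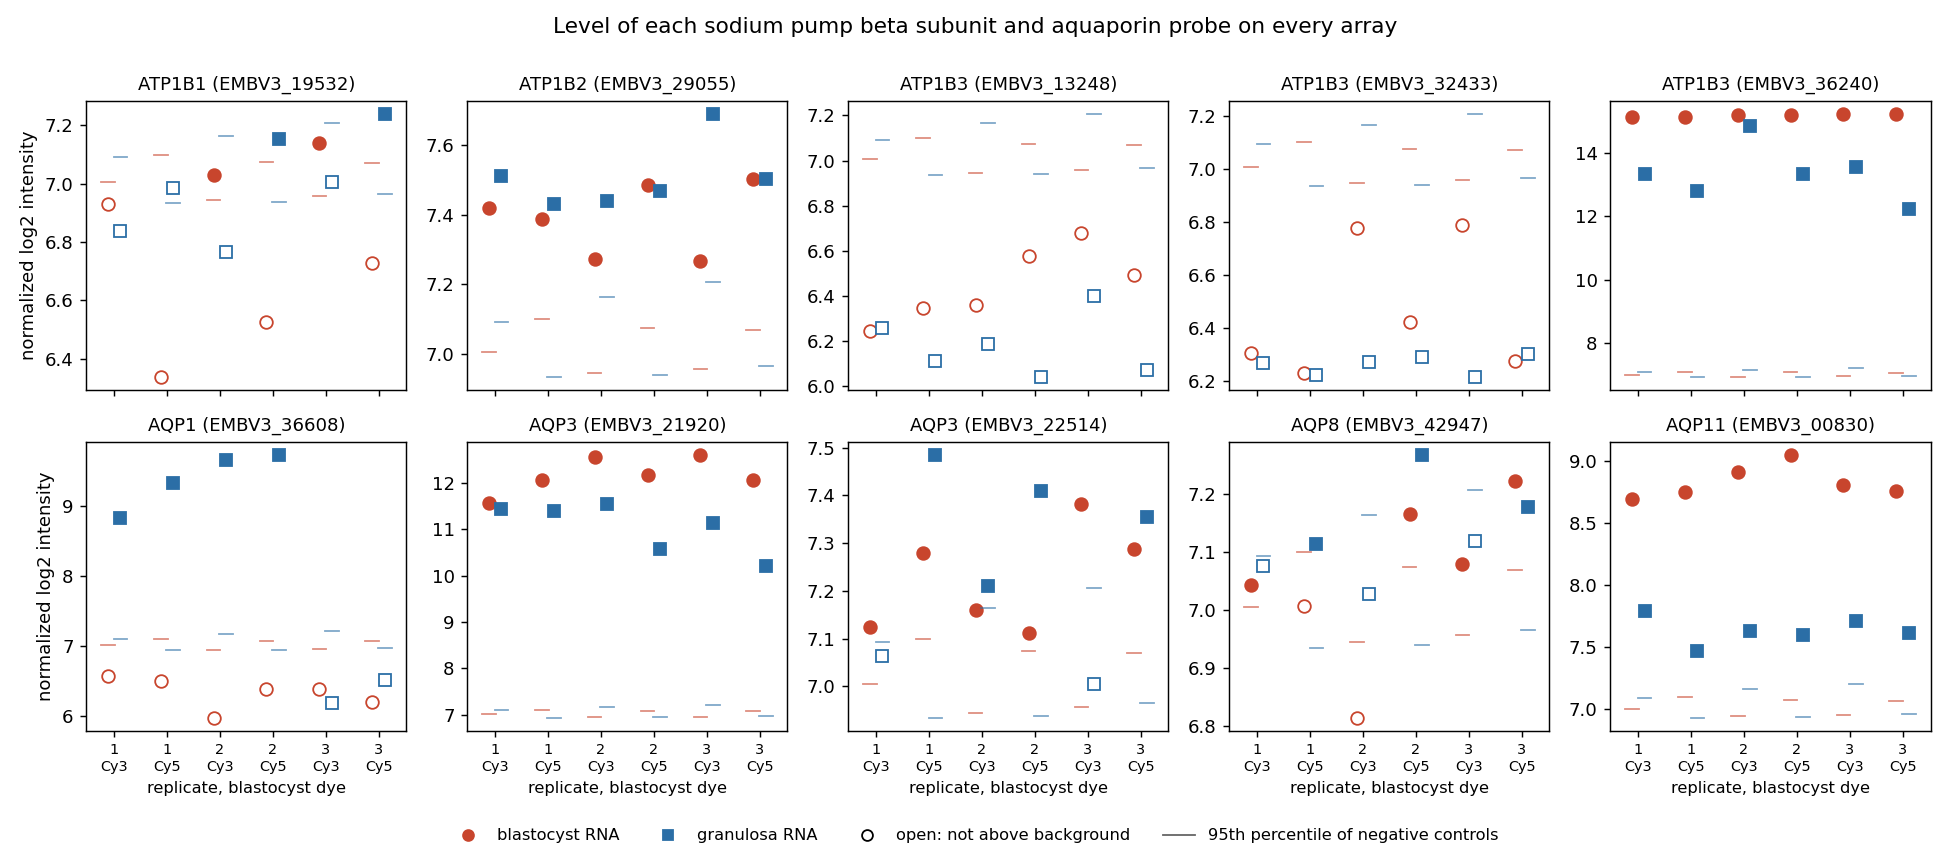
Normalized log2 intensity of each member probe in blastocyst RNA (circles) and granulosa RNA (squares), with 1 panel and its own axis per probe. Open points were not above background, and lines mark the negative control percentile. The ATP1B3 and AQP11 probes that were called have every blastocyst value above every granulosa value, and AQP1 in granulosa replicate 3 lies with the blastocyst values.

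ATP1B3, the beta-3 subunit, gave a very strong blastocyst signal by the probe EMBV3_36240. Normalized log2 intensities were 15.12, 15.18 and 15.21 in the blastocyst RNA of replicates 1 to 3. In granulosa RNA they were 13.07, 14.09 and 12.88. Every blastocyst value lay above every granulosa value, and the granulosa value of replicate 2 stood above the other 2.

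The log2 ratios were 2.05, 1.10 and 2.33, a mean of 1.83 ± 0.65 (SD, n = 3), or 3.54-fold higher in blastocysts (limma, adjusted p = 0.0407, 95% confidence interval 0.95 to 2.70). The blastocyst signal of this probe stood near the scanner limit, so the fold may be too low, by an amount that was not tested. The ratio was positive on 6 of 6 arrays. It ran from 0.35 to 3.00, and replicate 2 with blastocyst RNA in Cy3 gave the lowest value. The ratio differed between replicates beyond the spread within them (limma F test, adjusted p = 0.00264). That difference between replicates did not pass where arrays were only median-centred (adjusted p = 0.208). It also differed by dye, with 1.27 when blastocyst RNA was in Cy3 and 2.38 when it was in Cy5 (adjusted p = 0.0011). The call ended without replicate 1 (adjusted p = 0.149), without replicate 2 (0.0558) and without replicate 3 (0.117). Without replicate 2, 0 probes of the whole array passed, so the call had to end there whatever the ATP1B3 values.

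The raw blastocyst intensity of this probe was between 35895 and 38440 on the 6 arrays. The brightest spot of an array reached between 38593 and 40115 in Cy3 and between 39923 and 42366 in Cy5. The probe thus stood close to the scanner's upper end in blastocyst RNA on 6 of 6 arrays, where a signal does not rise in proportion to its RNA. Neither the closeness of its blastocyst values nor the upper end of its interval can be read as precise. Raw granulosa intensities, from 5082 to 28329, spread more widely. The other ATP1B3 probes, EMBV3_13248 and EMBV3_32433, were above background on 0 of 6 arrays in either cell type and were not tested. Their log2 ratios were 0.27 ± 0.14 and 0.21 ± 0.16 (SD, n = 3). The result for ATP1B3 therefore rests on 1 of its 3 probes.

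The other beta subunits were measured near background. ATP1B2, the beta-2 subunit, which in mammals is best known from glial cells of the brain, had log2 intensities of 7.40, 7.38 and 7.38 in blastocyst RNA and 7.47, 7.45 and 7.60 in granulosa RNA. The 3 blastocyst values all lay below the 3 granulosa values, by less than the difference the call requires. The mean log2 ratio was -0.12 ± 0.08 (SD, n = 3), and the difference did not pass (limma, adjusted p = 0.246, 95% confidence interval -0.29 to 0.06). The negative control percentile lay between 6.93 and 7.21 on the same scale, and the signal exceeded background on 6 of 6 arrays in both cell types.

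ATP1B1, the beta-1 subunit and the common partner of the alpha subunit in epithelia, was above background on 2 of 6 arrays in each cell type, and its single probe was not tested. Its log2 intensities were 6.63, 6.78 and 6.93 in blastocyst RNA and 6.91, 6.96 and 7.12 in granulosa RNA. The ratio averaged -0.22 ± 0.05 (SD, n = 3). It was 0.16 with blastocyst RNA in Cy3 and -0.60 with blastocyst RNA in Cy5, so 3 arrays were positive and 3 negative, and the sign went with the dye. No direction was read from this probe.

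**Figure D2:**
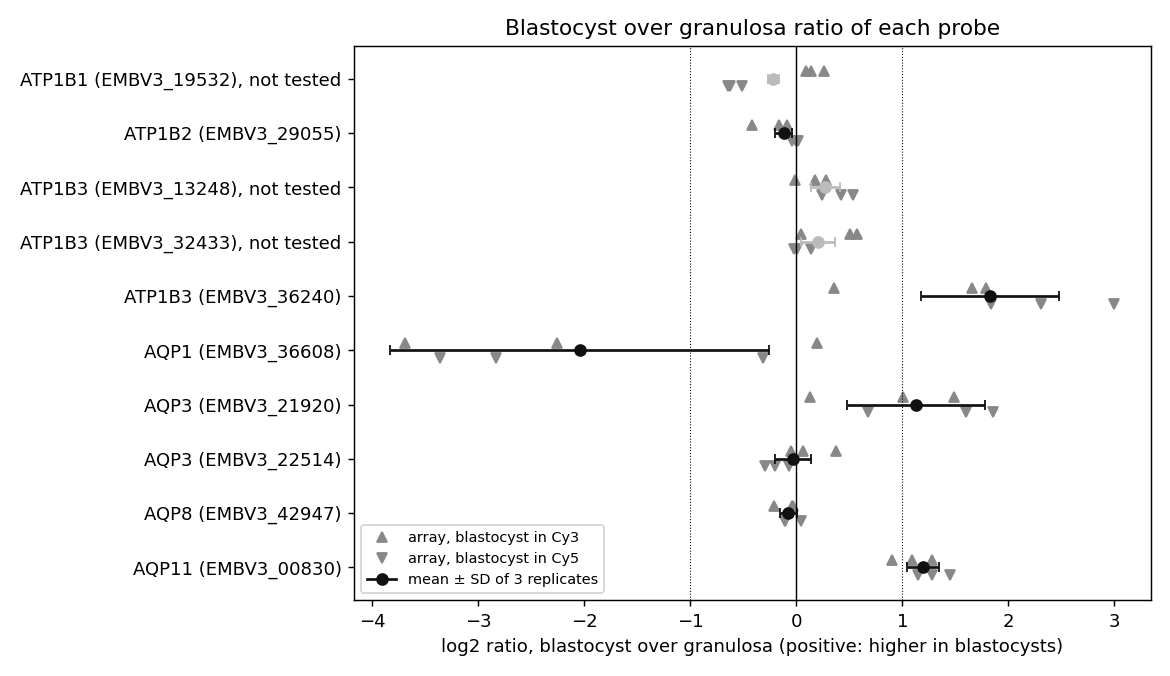
Log2 ratio of blastocyst over granulosa for the member probes, with 1 point per array marked by dye orientation and the mean of the 3 replicates with its SD. ATP1B3 (EMBV3_36240), AQP11 and the brighter AQP3 probe are positive on all 6 arrays, and the AQP1 arrays of replicate 3 lie around 0 while those of replicates 1 and 2 lie far below it.

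AQP11 is an unorthodox aquaporin that sits mainly in internal membranes of the cell. Its probe EMBV3_00830 had log2 intensities of 8.72, 8.98 and 8.78 in blastocyst RNA. In granulosa RNA they were 7.63, 7.62 and 7.66. The groups did not overlap, and both were above background on 6 of 6 arrays. The log2 ratios of 1.09, 1.36 and 1.12 averaged 1.19 ± 0.15 (SD, n = 3), or 2.28-fold higher in blastocysts (limma, adjusted p = 0.0103, 95% confidence interval 0.95 to 1.43).

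Over single arrays the AQP11 ratio ran from 0.90 to 1.45. Neither the test between replicates (adjusted p = 0.163) nor the test between dyes (adjusted p = 0.101) passed for it. Without background subtraction the AQP11 ratio was 0.95 and fell below the ratio the call requires, at an adjusted p of 0.00953. The call also ended without replicate 1 (adjusted p = 0.0503) and without replicate 2 (0.0582), and without replicate 3 it was kept (0.0475). Without replicate 2, 0 of the 35034 probes passed in limma and 8503 had an unadjusted p under 0.05.

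AQP3 is an aquaglyceroporin, a channel for water and glycerol found in the membranes of many epithelia. By its brighter probe EMBV3_21920, log2 intensities were 11.81, 12.36 and 12.34 in blastocyst RNA and 11.41, 11.06 and 10.67 in granulosa RNA. The groups did not overlap, and the ratio was positive on 6 of 6 arrays. The log2 ratios were 0.41, 1.30 and 1.67, a mean of 1.13 ± 0.65 (SD, n = 3), or 2.18-fold. This difference did not pass (limma, adjusted p = 0.0942, 95% confidence interval 0.24 to 2.01).

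The AQP3 ratio differed between replicates (limma F test, adjusted p = 5.8e-05), lowest in replicate 1, and by dye (0.87 with blastocyst RNA in Cy3 and 1.38 in Cy5, adjusted p = 0.00205). In a fit of the 6 arrays blocked by replicate number it passed, at an adjusted p of 0.00701, and at 0.0109 when a dye term was added. The 6 arrays without the block gave 0.00702. The block without a dye term had a consensus correlation of -0.0026, so it too treated dye swaps of the same pools as separate samples. The brighter AQP3 probe also passed when arrays were only median-centred, with a ratio of 1.29 and an adjusted p of 0.0455. The other AQP3 probe, EMBV3_22514, did not pass. Its log2 intensities were 7.20, 7.14 and 7.33 in blastocyst RNA and 7.27, 7.31 and 7.18 in granulosa RNA, near the negative controls and overlapping. Its mean log2 ratio was -0.03 ± 0.17 (SD, n = 3, adjusted p = 0.821). The ratios of the probes thus differ, and the values for AQP3 rest on the brighter one. A signal so near the negative controls can show little of a difference.

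AQP1, a water channel abundant in red blood cells and in the endothelium of many vessels, was the one member whose signal was found in granulosa RNA alone. Its probe EMBV3_36608 had log2 intensities of 6.53, 6.18 and 6.29 in blastocyst RNA, above background on 0 of 6 arrays. In granulosa RNA they were 9.08, 9.70 and 6.34. The probe was above background on both arrays of granulosa replicates 1 and 2 and on 0 arrays of replicate 3, whose value overlapped the blastocyst values.

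The AQP1 log2 ratios were -2.55, -3.52 and -0.06, a mean of -2.04 ± 1.79 (SD, n = 3), and the difference did not pass (limma, adjusted p = 0.179, 95% confidence interval -4.44 to 0.35). Because AQP1 was not above background in blastocyst RNA, a fold is only a lower bound. Against the lowest normalized signal of a probe above background, the bound on the granulosa mean was 4.04-fold, little below the measured 4.12-fold. In replicate 1 that floor lay below the probe's own blastocyst signal, so the bound there equals the measured ratio. Against the negative control percentile, a floor added after the values were seen, the bound on the mean was 2.55-fold. Both means include replicate 3, and neither bound allows for the spread between replicates. With those floors the bound was 5.84-fold or 4.07-fold in replicate 1 and 10.8-fold or 6.46-fold in replicate 2. No fold is given for replicate 3, where neither side was above background. The ratio differed between replicates (limma F test, adjusted p = 5.8e-06). Without replicate 3 the ratio was -3.04 and the adjusted p 0.0547. In the fit of 6 arrays blocked by replicate number, AQP1 passed at an adjusted p of 0.0258, or 0.0495 with a dye term, and the 6 arrays without the block gave 0.0259. As for AQP3, the block without a dye term treated dye swaps of the same pools as separate samples. These are bulk pools, in which fewer cells of a type and less RNA per cell cannot be told apart.

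**Figure D3:**
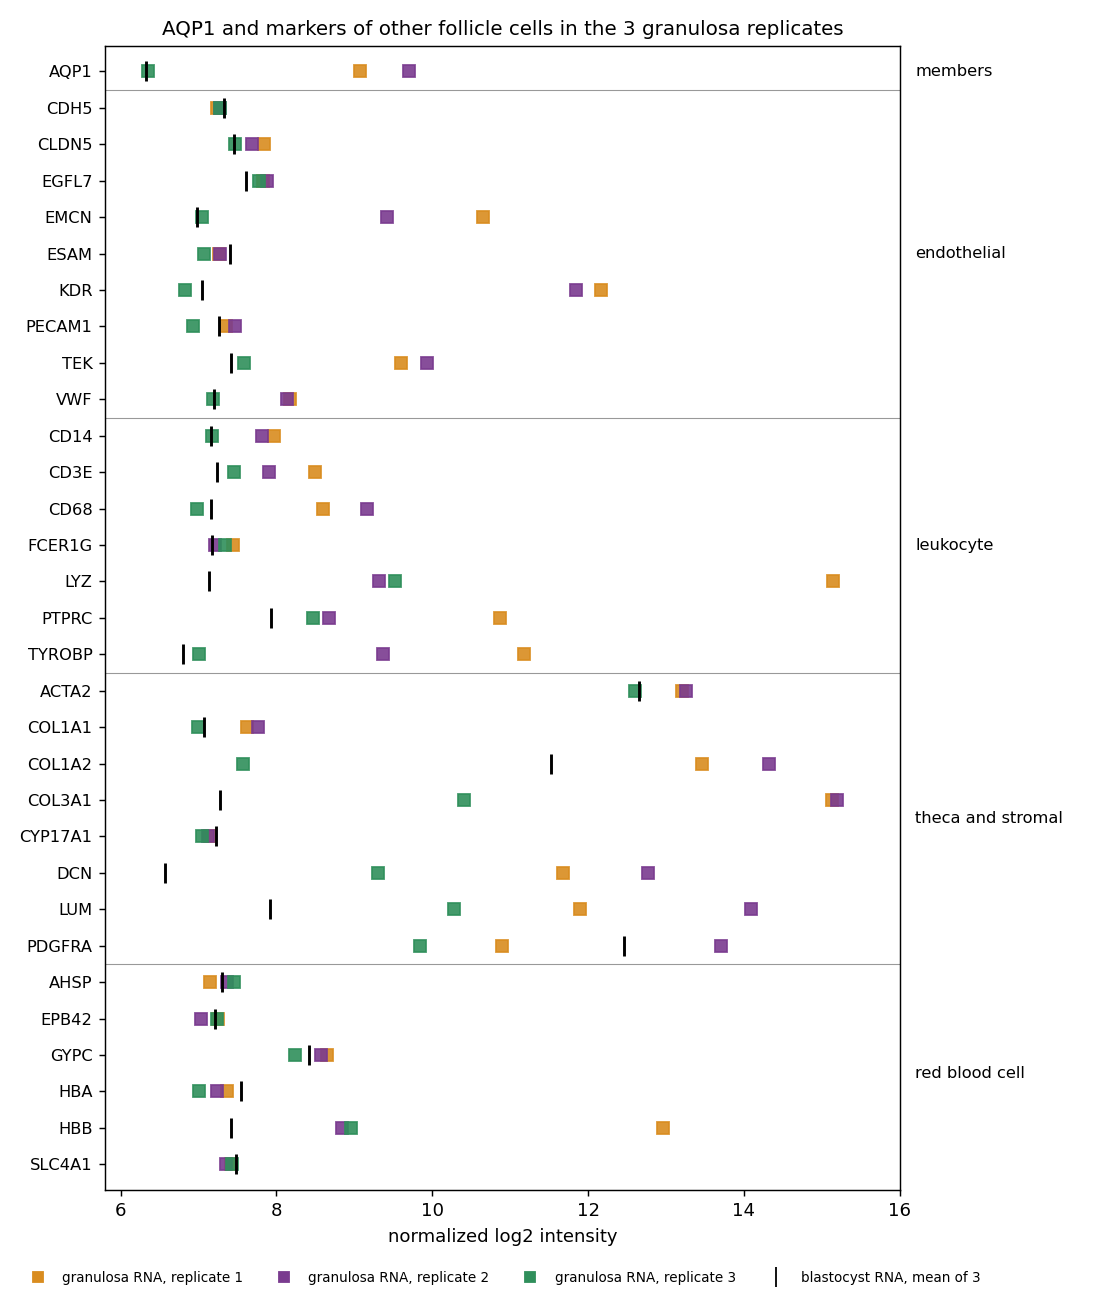
Granulosa-channel log2 intensity of AQP1 and of endothelial, red blood cell, leukocyte and stromal marker genes in replicates 1 to 3 (coloured squares), with the mean of the blastocyst RNA as a black tick. Replicate 3 lies lowest for AQP1 and for 8 of 9 endothelial, 8 of 8 theca and stromal, 5 of 7 leukocyte and 2 of 6 red blood cell markers, against 37.6% of all genes tested.

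Marker lists of other cell types were compared between the granulosa pools. The summed intensity of the 9 endothelial markers was 8177, 6563 and 1392 in granulosa replicates 1 to 3 and 1418 to 1461 in blastocyst RNA, and 4 of the 9 differed between replicates, against 48.3% of all genes tested, so that count is not above the background. KDR, a receptor for vascular growth factor, had log2 intensities of 12.16, 11.85 and 6.82, and EMCN, an endothelial surface sialomucin, 10.65, 9.42 and 7.05. TEK and VWF were also lowest in replicate 3. CDH5 (7.23, 7.27 and 7.27) and PECAM1 (7.35, 7.47 and 6.93), which define endothelium as well, stayed near background in the 3 pools. In all, 8 of the 9 endothelial markers were lowest in replicate 3, against 37.6% of all genes tested. Some of them differed little between the pools, such as EGFL7 at 7.82, 7.88 and 7.78 and ESAM at 7.26, 7.27 and 7.07.

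The 8 theca and stromal markers summed to 66025, 105851 and 10812 in granulosa RNA, against 15351 to 18243 in blastocyst RNA, and 8 of 8 were lowest in replicate 3, although CYP17A1, the defining enzyme of theca cells, stayed near background in every pool at 7.05 to 7.15. Of these 8 genes 6 differed between replicates, against 48.3% of all genes tested. The collagen gene COL3A1 stood at 15.14, 15.19 and 10.41. The 7 leukocyte markers summed to 41458, 2896 and 1827, a sum carried mostly by LYZ at 15.14, 9.32 and 9.53, and 5 of the 7 were lowest in replicate 3. Between replicates 6 of the 7 leukocyte markers differed, against the same share of all genes. Among those other than LYZ, TYROBP stood at 11.17, 9.37 and 7.01 and CD68 at 8.59, 9.16 and 6.98. The 6 red blood cell markers summed to 9050, 1449 and 1424, and 2 of the 6 were lowest in replicate 3. HBB, a haemoglobin gene, carried that sum at 12.97, 8.85 and 8.95 and was the only 1 of the 6 that differed between replicates, while the haemoglobin gene HBA stood near background at 7.36, 7.23 and 7.01. The part of these cell types in the AQP1 values was not tested.

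**Figure D4:**
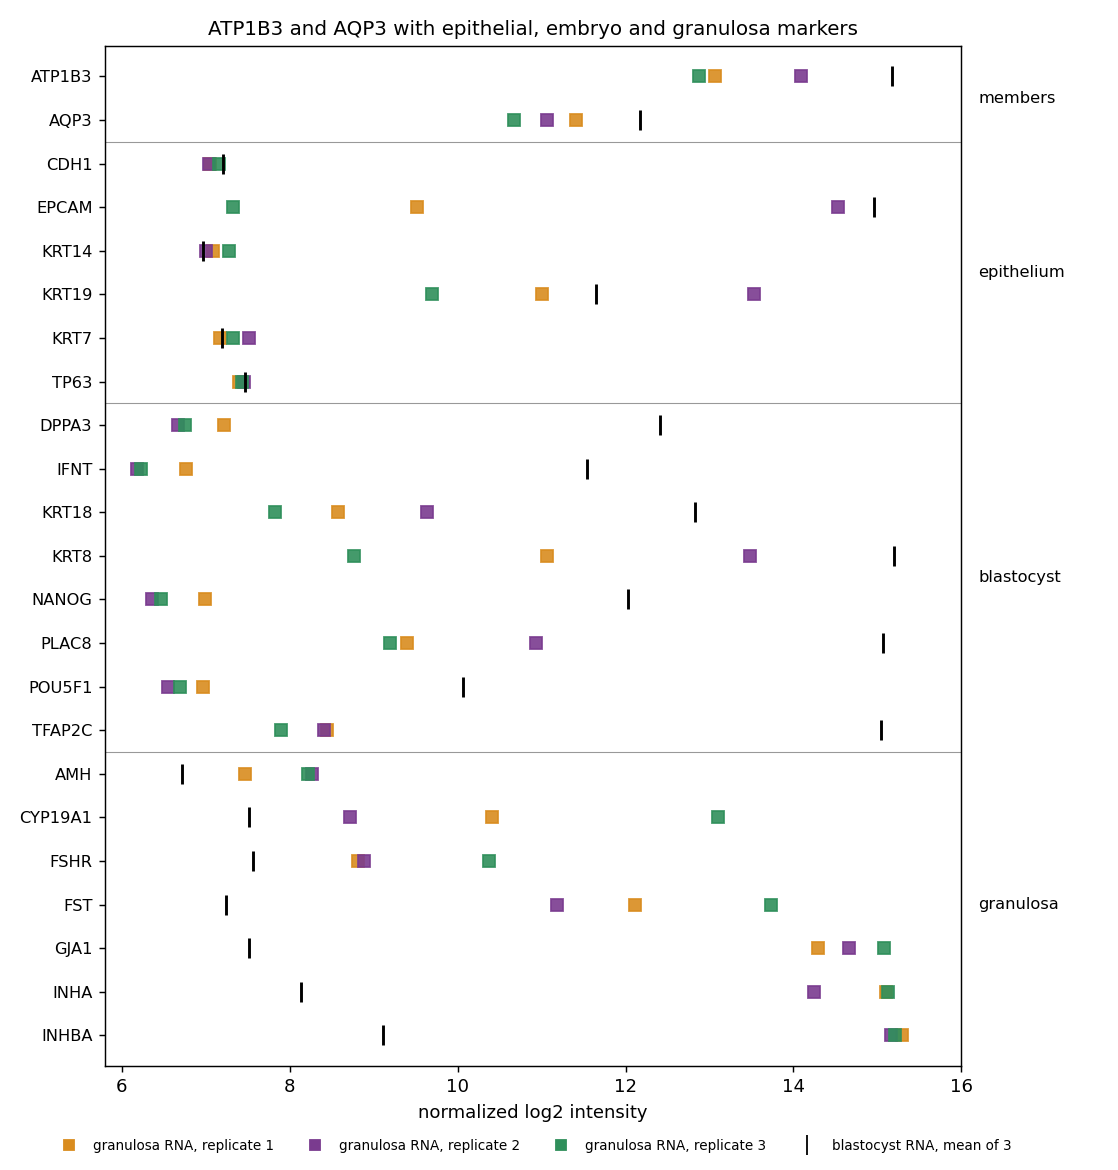
Granulosa-channel log2 intensity of ATP1B3 and AQP3 and of epithelial, blastocyst and granulosa marker genes in replicates 1 to 3 (coloured squares), with the mean of the blastocyst RNA as a black tick. ATP1B3, EPCAM, KRT19 and KRT8 are highest in replicate 2, while AQP3 is highest in replicate 1.

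EPCAM and KRT19, markers of epithelium, were highest in granulosa replicate 2, where the ATP1B3 level of granulosa RNA was also highest. The adhesion gene EPCAM had granulosa log2 intensities of 9.51, 14.54 and 7.33, and the keratin gene KRT19 had 11.00, 13.53 and 9.69. Those were the 2 of 6 epithelial markers that differed between replicates, again not above that background of all genes, and the list summed to 3364, 36232 and 1617 in granulosa RNA against 33044 to 38898 in blastocyst RNA. CDH1 (7.05, 7.03 and 7.16) and KRT14 (7.09, 7.00 and 7.28) stayed near background. The keratin gene KRT8, a blastocyst marker here, stood at 11.06, 13.48 and 8.76. Its replicate 2 was highest in either dye, but at raw granulosa intensities of 34533 in Cy5 and 3906 in Cy3. The KRT8 ratio differed by dye, with 2.17 when blastocyst RNA was in Cy3 and 6.03 when it was in Cy5 (limma, adjusted p = 9.0e-05). Its blastocyst signal was near the scanner limit on 6 of 6 arrays, so these levels are imprecise. The part of epithelial cells in the ATP1B3 level was not tested. Without replicate 2 the ATP1B3 ratio was 2.19, against 1.83 with it.

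AQP8, a channel for water and ammonia, had log2 intensities of 7.02, 6.99 and 7.15 in blastocyst RNA and 7.09, 7.15 and 7.15 in granulosa RNA. The values overlapped the range of the negative control percentile, and the probe was above background on 4 of 6 blastocyst and 3 of 6 granulosa arrays. The mean log2 ratio was -0.08 ± 0.08 (SD, n = 3) and did not pass (limma, adjusted p = 0.41, 95% confidence interval -0.25 to 0.10). A difference in AQP8 was not detectable at this signal.

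The related genes of the pathway were counted by the brightest probe of each gene. Over all 13225 genes tested, 5.72% were called towards blastocysts and 7.68% towards granulosa cells, and the median log2 ratio was -0.02. Of 13 other subunits, relatives and regulators of the pump with a named probe 11 were tested. In limma 2 were called towards blastocysts and 0 towards granulosa cells, or 2 and 1 at an unadjusted p under 0.05, and the median log2 ratio was -0.06.

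Those called were NKAIN1 and ATP12A. NKAIN1, a membrane protein that in the mouse binds the pump's beta-1 subunit, had log2 ratios of 2.38, 1.79 and 2.80, a mean of 2.33 ± 0.51 (SD, n = 3, limma adjusted p = 0.0179). ATP12A, the catalytic subunit of the non-gastric proton-potassium pump, had 1.71, 2.09 and 2.06, a mean of 1.95 ± 0.21 (adjusted p = 0.00789). Blastocyst log2 intensities of ATP12A were 8.99, 9.32 and 9.37 against 7.28, 7.23 and 7.30 in granulosa RNA, which did not overlap. ATP4B, the beta subunit of the gastric proton pump, had log2 ratios of -0.76, -1.92 and -1.99 and did not pass (adjusted p = 0.06). The alpha subunit ATP1A4, known from sperm, gave -0.03 ± 0.09. FXYD1, FXYD2, FXYD3 and FXYD5, of the family of small pump regulators, did not pass, with mean ratios between -0.36 and 0.02. ATP1A4, FXYD1, FXYD2 and FXYD5 had mean log2 intensities between 6.96 and 7.19 in both cell types, near the negative controls. Their ratios near 0 therefore do not show equal levels.

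Of 7 other aquaporins with a named probe 4 were tested, and limma called 0 in either direction, with 1 higher in blastocysts and 0 in granulosa cells at an unadjusted p under 0.05. Their median log2 ratio was 0.11. AQP4, the main water channel of brain astrocytes, was above background on 0 of 6 granulosa and 3 of 6 blastocyst arrays, and its measured ratio (adjusted p = 0.0449) was below the one the call requires. Its arrays differed by dye, with -0.14 when blastocyst RNA was in Cy3 and 0.76 when it was in Cy5, and its other probe gave -0.10. AQP2, AQP5 and AQP7 gave 0.11 ± 0.04, 0.11 ± 0.10 and -0.09 ± 0.05. Their mean log2 intensities lay between 7.16 and 7.74 in both cell types, not far above the negative controls. Ratios near 0 at such a signal do not show equal levels. MIP, AQP6 and AQP9 were too dim to be tested.

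Of 23 carriers and channels for sodium, protons and chloride with a named probe 18 were tested. In limma 1 was called towards blastocysts and 0 towards granulosa cells, or 2 and 3 at an unadjusted p under 0.05, and the median log2 ratio was -0.02. The one called was CLCN3, a chloride-proton exchanger of endosomes. Its log2 ratios were 2.08, 1.37 and 2.22, a mean of 1.89 ± 0.45 (SD, n = 3, adjusted p = 0.0214). SCNN1B, a subunit of the epithelial sodium channel, stood at -0.70, -1.89 and -0.57 and did not pass (adjusted p = 0.126). The other subunits SCNN1A and SCNN1G gave -0.06 ± 0.14 and 0.02 ± 0.09. SCNN1G lay near background, at mean log2 intensities of 7.32 in blastocyst RNA and 7.30 in granulosa RNA. The carrier SLC12A2, which brings sodium, potassium and chloride into cells together, gave 0.21 ± 0.39.

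Of 11 tight junction genes tested, 4 were called towards blastocysts and 0 towards granulosa cells (8 and 0 at an unadjusted limma p under 0.05), and the median log2 ratio was 0.62. The claudin CLDN4 gave the largest, 5.58 ± 1.27 (SD, n = 3, adjusted p = 0.0186), with a granulosa log2 intensity of 10.20 in replicate 2 against 8.12 and 7.81 in replicates 1 and 3. CLDN6 gave 3.38 ± 0.57 (adjusted p = 0.012), occludin (OCLN) 1.81 ± 0.38 (0.0171) and the scaffold protein gene TJP3 1.52 ± 0.27 (0.0139). F11R, the junctional adhesion molecule A, had log2 ratios of 3.19, 1.91 and 5.13 by its brightest probe, which did not pass (adjusted p = 0.0662). The other tested probe of F11R, with a log2 ratio of 1.24, was called higher in blastocysts. TJP1, the scaffold protein also called ZO-1, gave 0.62 ± 0.20 at an adjusted p of 0.0428, below the ratio the call requires.

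**Figure D5:**
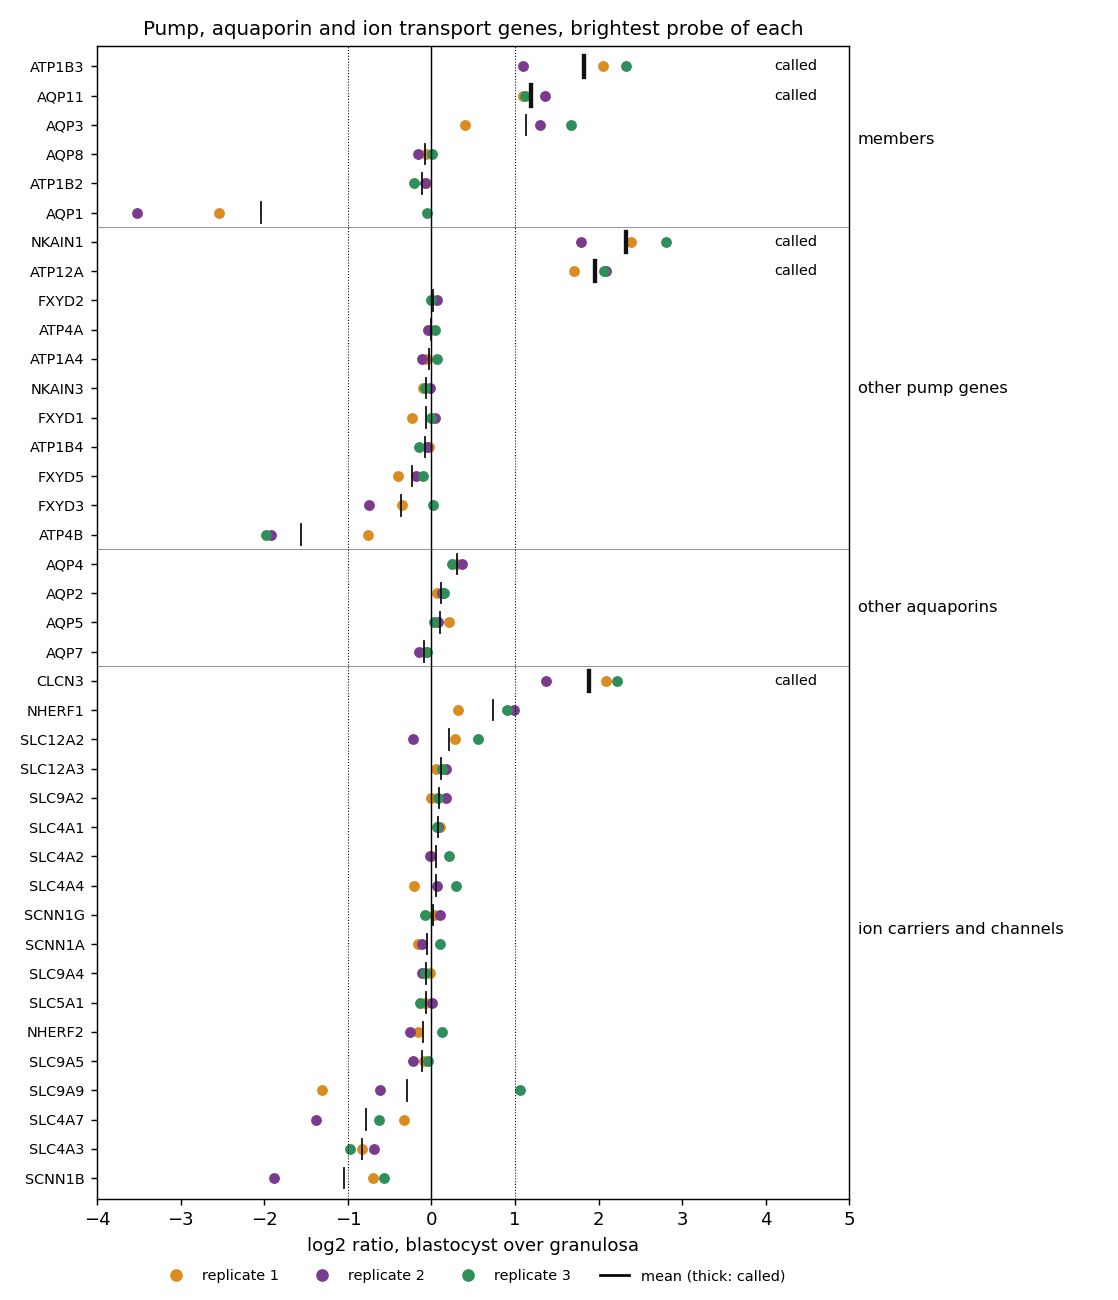
Log2 ratio of blastocyst over granulosa with its mean over 3 replicates, for the brightest probe of each tested gene of the members, the other pump genes, the other aquaporins and the ion carriers and channels. Most aquaporins and carriers lie near 0, many of them with a signal near background.

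The genes most like each called member were found among 13224 others by the smallest Euclidean distance between their 12 centred log2 channel values, 1 per array and cell type. For AQP11 these were SELENOI, an enzyme of phospholipid synthesis, at a distance of 0.34, NUDT21, a factor of messenger RNA 3' end processing, at 0.36, and the numbered locus LOC783202 at 0.39. Their own log2 ratios were 1.18, 1.16 and 1.31. For ATP1B3 they were MPC1, a subunit of the mitochondrial pyruvate carrier (1.16), the chloride channel family member CLIC4 (1.25) and PRSS8, a membrane-bound protease that in other mammals activates the epithelial sodium channel (1.27). All were called higher in blastocysts, with log2 ratios of 2.18, 1.36 and 1.84. The distances for ATP1B3 are larger than those for AQP11, whose values vary less.

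By the order of genes in the RefSeq annotation of assembly ARS-UCD2.0, AQP3 and AQP7 are neighbours on chromosome 8. AQP7 gave -0.09 ± 0.05 and NOL6, on the other side of AQP3, gave 0.14 ± 0.10, and neither passed. AQP11 lies on chromosome 29 between CLNS1A, with 0.44 ± 0.15, and PAK1, with 0.21 ± 0.29, which did not pass. Next to ATP1B3 on chromosome 1, GRK7 gave 0.04 ± 0.04.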

How the data were processed

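Amplified RNA of both cell types was hybridised to 6 2-colour arrays, per the labels' protocols. The deposited intensity columns used hold, per the file headers, each spot's raw and local background intensities at 532 (Cy3) and 635 (Cy5) nm, without correction or normalization. The authors' deposited value table, a score of unstated unit, equals by its values the quotient of the channels' log2 net intensities, its sign turned negative for blastocyst-titled arrays. The numerator is Cy3 on granulosa array 2 and Cy5 on the others. It is thus not a log ratio and was not tested. Its medians are -0.998, -0.998 and -1.00 on the arrays titled blastocyst and 1.00, 0.999 and 1.00 on those titled granulosa. Columns were read by wavelength, because 1 file lists 635 before 532.

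In limma 3.58.1 (R 4.3.3) intensities were corrected with normexp (offset 50) and normalized by loess within arrays. A probe was tested if above the 95th percentile of negative controls on at least 3 of 6 arrays in one cell type. Replicate means were tested against 0 with lmFit and eBayes (3.35 degrees of freedom). Levels per channel are after loess and Aquantile. An F test with a dye term compared replicates. Bounds use, per array, the higher of the dim signal and the lowest signal above background. Figures used Python 3.11.15 and matplotlib 3.10.9.

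The numbers in the titles pair the arrays: deviations of same-numbered arrays correlated across probes at 0.84 to 0.93, and those of different numbers at -0.59 to -0.20. Symbols were updated through RefSeq names of ARS-UCD2.0 (20068 current, 1644 updated, 78 unmatched). All member probes are named, as are up to 4 called genes per list with the largest ratios and the 3 genes most like each called member. Other list genes were named after their values were seen. The members and lists were chosen with earlier results of these data known. Alternatives varied background correction, normalization, filter, probe choice, replicate block and replicates.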

Additional observations from a re-analysis of the deposited data

How the results depend on the processing

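The count of member probes called, 2, fell to 1 without background subtraction and to 1 without the probes close to the scanner's limit. It was 4 with the 6 arrays taken as separate samples, 4 in the fit with a replicate block and 4 with that block plus a dye term, where the consensus correlations were -0.0026 and 0.66. Leaving out 1 replicate gave 0 to 1 called members and 0 to 2541 called probes, against 3553 with the 3 replicates. AQP1 and AQP3 were the members added in those fits, with the block or without it, so the step from 3 replicate means to 6 arrays was enough to add them. What the block itself changed could not be told. Without a dye term it had almost no weight, and no fit with a dye term was run without it. With median centring 6843 probes differed between replicates instead of 13158, and 8455 differed by dye instead of 17447. The cause was not tested. Without normalization AQP3 passed at a ratio of 1.09 (adjusted p = 0.0469), but that setting moved the median ratio of all probes by -0.19. No member changed direction past the threshold. Over its alternatives the ratio of ATP1B3 ran from 1.57 to 2.19 (called in 11 of 14), AQP11 from 0.95 to 1.25 (12 of 15), AQP3 from 0.85 to 1.48 (5 of 15) and AQP1 from -3.04 to -1.30 (3 of 14). Aquantile scaling after loess is among these alternatives, leaves the ratios as they were and could not change a call. The fits of 6 arrays, which hold the same pools in both dye orientations, are counted too. These tallies are therefore not a measure of robustness. For ATP1B1, AQP8 and the dim probes of ATP1B3 and AQP3, signal near background limits what can be seen.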

Other observations

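Outside the members, the sodium-proton exchanger gene SLC9A9 changed sign between the replicates, with log2 ratios of -1.31, -0.62 and 1.06 (limma F test between replicates, adjusted p = 8.7e-06), and its mean of -0.29 ± 1.22 (SD, n = 3) did not pass. NHERF1, a scaffold protein that anchors ion carriers at the cell membrane, was positive in every replicate at 0.31, 0.99 and 0.90 and did not pass either (limma, adjusted p = 0.0769).

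By the same measure of likeness, chosen for these genes after their values were seen, the genes nearest to AQP1 were the chemokine gene CXCL10 at a distance of 0.71, EVA1C at 0.75 and the transcription factor gene NFIB at 0.83. Granulosa log2 intensities of CXCL10 were 10.67, 10.94 and 7.59 in replicates 1 to 3. A gene picked for its likeness to AQP1 shares the low replicate 3 by that choice, so this adds nothing to the AQP1 pattern. Those nearest to AQP3 were GP1BA at 0.25, MIIP at 0.36 and PRPSAP2 at 0.45.

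Beside ATP1B1 in the ARS-UCD2.0 gene order, NME7 was called higher in granulosa cells at -1.92 ± 0.23 (SD, n = 3, limma adjusted p = 0.00868), and beside AQP8, ZKSCAN2 was called at -1.03 ± 0.13 (adjusted p = 0.0109), while the probes of ATP1B1 and AQP8 lay near background.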
